A study of Mus musculus with 20 samples.

Results

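The 41 genes described here encode the machinery that copies DNA in S phase. They were chosen by function and matched by gene symbol, and all 41 were found among the 50559 genes of the count table. By role they comprise the 6 subunits of the MCM2-7 helicase, 5 genes of origin licensing and helicase loading, 5 of helicase activation, 7 polymerase and primase subunits, 6 of the sliding clamp and its loader, 2 of Okazaki fragment maturation, 4 of nucleotide supply, 3 of chromatin assembly and methylation maintenance, and 3 of fork protection. *Mcm10*, which helps to activate the helicase, was grouped with origin licensing. The choice of the 41 genes was made with measured differences of these genes between the 4 groups already known. The counts of its members below are a description, set beside the same count over all genes tested except where stated.

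RNA was sequenced from 20 mouse liver samples, here called livers, 5 in each of 4 groups. All mice carried a floxed *Cideb* allele on both chromosomes (*Cideb* fl/fl), a gene that encodes a lipid droplet protein of hepatocytes. WT livers had received AAV-TBG-GFP, a virus that expresses a fluorescent protein, and KO livers AAV-TBG-Cre, which deletes *Cideb*. The TBG promoter drives expression in hepatocytes, so the other cells of a KO liver keep the gene. Mice were injected at 6 weeks of age and were fed a Western diet (WD) or CDA-HFD, a diet rich in fat that lacks choline and has a defined amino acid content. The labels give 3 months for both diets, whereas the text of the study gives 24 weeks of WD and 12 weeks of CDA-HFD, so that diet cannot be told apart from feeding time and age. The labels number the samples of a group and do not state that each came from its own animal, so p-values measure the spread between these samples, part of which may be technical.

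Before a cell copies its DNA, the origin recognition complex, CDC6 and CDT1 load the MCM2-7 ring onto chromatin in G1 phase. CDC45 and the GINS complex then switch the ring on as the replicative helicase, and DNA polymerases α, δ and ε, held on the template by the PCNA clamp, synthesise the new strands. Most hepatocytes of an adult liver rest outside the cell cycle, the genes of this machinery are expressed mainly in cells that enter S phase, and many of them are classical targets of the E2F transcription factors.

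Read totals on genes ran from 11697049 to 16827147 per liver, of which the 41 genes took 0.0263% to 0.0649%. Levels are given as CPM, the reads of a gene out of 1000000 reads on genes after TMM scaling of the library sizes. Values are listed in the order of livers 1 to 5 of a group. *Cideb* itself stood at 4.78 to 7.57 CPM in WT livers and at 0 to 0.389 CPM in KO livers on WD, and at 2.22 to 3.83 and 0 to 0.399 CPM on CDA-HFD. The 8 hepatocyte markers together reached at least 33321 CPM in every liver. KO liver 5 on CDA-HFD stood apart: its 18 macrophage markers summed to 3584 CPM, while the other 4 KO livers had 890 to 1189 CPM and the WT livers of that diet 2705 to 5426 CPM, and the counts of genes past the threshold in comparisons that use it are given with and without it.

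The annotated promoter windows of some of these genes hold a sequence that the choice of members did not use. RefSeq windows from 250 bases before to 50 bases after the start (build GRCm38) were matched by symbol for 33 of the 41 genes, while *Mcm4*, *Gins1*, *Gins2*, *Gins4*, *Prim2*, *Pole*, *Rfc2* and *Tipin* had none. The E2F consensus letters (TTT, then a pair of bases that are each C or G, then CGC, searched on both strands) stood in 15 of the 33 genes (45.5%), compared with 704 of all 27025 genes with a window (2.6%). CCAAT stood in 60.6% of the members and 41.1% of all genes, and the CHR letters TTTGAA, known from genes of mitosis, in 12.1% and 20.2%. A match is a description of the letters and not of a bound site. The 30-base stretches below are those of the 9 genes with these letters that were lower in KO livers on CDA-HFD, with the E2F letters in capitals, each read 5′ to 3′ on the strand of its gene. *Cdt1*, *Clspn*, *Gins3*, *Lig1*, *Mcm7* and *Pold1* hold the letters too, did not pass there and are not shown.
Mcm5 (chr8:75109349-75109378, plus strand): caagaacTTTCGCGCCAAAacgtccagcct
Mcm6 (chr1:128359734-128359763, minus strand): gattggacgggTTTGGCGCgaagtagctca
Mcm3 (chr1:20820275-20820304, minus strand): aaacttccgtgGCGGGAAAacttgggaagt
Orc1 (chr4:108579416-108579445, plus strand): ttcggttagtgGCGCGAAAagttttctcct
Cdc6 (chr11:98908002-98908031, plus strand): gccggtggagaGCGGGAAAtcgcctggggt
Pola1 (chrX:93632275-93632304, minus strand): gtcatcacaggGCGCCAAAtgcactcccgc
Pole2 (chr12:69228162-69228191, minus strand): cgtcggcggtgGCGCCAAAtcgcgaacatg
Rfc3 (chr5:151651190-151651219, minus strand): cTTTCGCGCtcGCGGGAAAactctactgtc
Uhrf1 (chr17:56304117-56304146, plus strand): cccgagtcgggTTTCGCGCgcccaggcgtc
In *Mcm5* the capitals are a pair of overlapping matches, one on each strand, and *Rfc3* holds 2 separate matches in 30 bases. Of the 21 matches in the 15 windows, 13 lay within 100 bases of the annotated start.

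**Figure D1:**
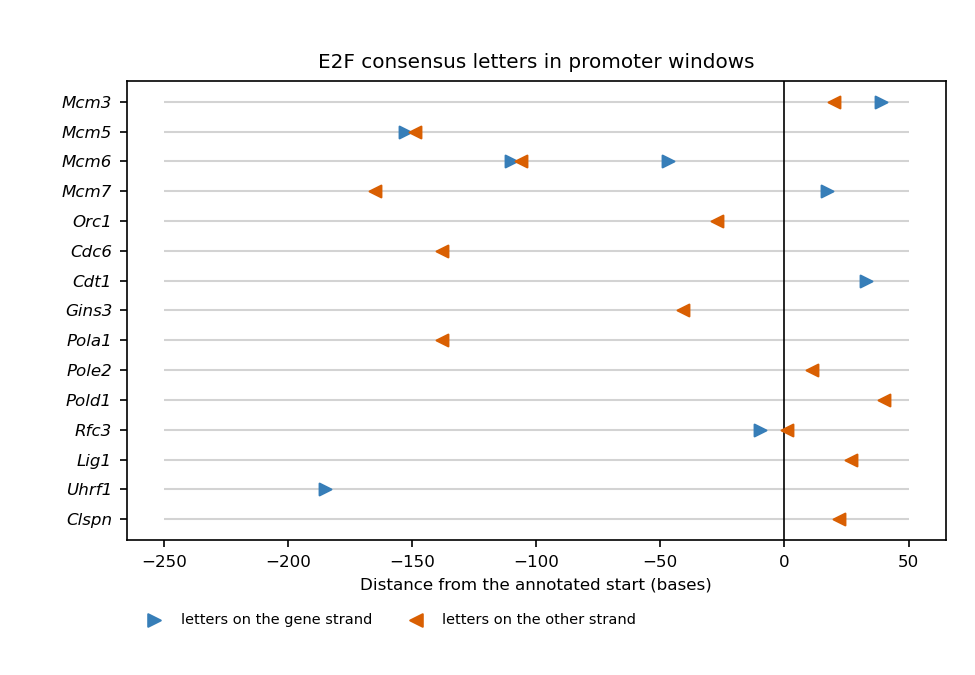
Positions of the E2F consensus letters in the 15 promoter windows that hold them, in bases from the annotated start (vertical line at 0), with grey lines for the windows and triangles for the strand of each match. Of the 21 matches, 13 lie within 100 bases of the start.

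On both diets, most of the replication genes had a lower fitted level in KO livers than in WT livers. On WD, 39 of the 41 genes passed the filter on low counts (*Orc1* and *Cdc6* did not), 38 of the 39 had a log2 fold change below 0 and the median was -0.47, whereas 47.2% of all genes tested were below 0 and their median was 0.01. Only 3 of the 39 passed the threshold (edgeR adjusted p under 0.05 over all genes tested), *Mcm4*, *Mcm5* and *Pole*, and all 3 were lower in KO livers. Over all genes 12 of 15848 passed (0.0757%), of which 10 were lower (0.0631%) and 2 higher (0.0126%), so that these 3 are among the 10. At an unadjusted p under 0.05 the members numbered 24, against 10.7% of all genes, and in 6 members every KO liver was below every WT liver (1.09% of all genes), while in 0 every KO liver was above (1.14%). The count of 3 changed with 1 liver left out. It was 0 without any one of WT livers 1, 2, 4 and 5 or of KO livers 1, 2, 3 and 4. In those fits only 0.00617% to 0.0313% of all genes passed. The count was 2 (*Mcm4* and *Mcm5*) without KO liver 5 and 5 without WT liver 3, beside 0.138% and 0.206% of all genes. Over these fits the log2 fold change ran from -1.03 to -0.90 for *Mcm4*, -1.87 to -1.58 for *Mcm5* and -1.29 to -1.09 for *Pole*. DESeq2 called 9, with 1.08% of all genes, while library sizes alone and a block for the replicate number each left 0. With these, only 0.0505% and 0.0126% of all genes passed, and 38 of the 39 members had a log2 fold change below 0 in each. Where all 5 livers of a group lay on one side of the other 5, the exact two-sided permutation test of the mean log2 CPM can only give p = 0.00794, the smallest that 5 against 5 livers allow, and adds nothing to the lack of overlap. In whole liver, fewer cells that copy DNA and less of these transcripts per cell cannot be told apart.

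On CDA-HFD all 41 genes passed the filter, 36 had a log2 fold change below 0 (49.4% of all genes) and the median was -0.47 (0.00 over all genes). Past the threshold, 16 were lower in KO livers and 0 were higher, while 15.5% of all genes passed, 7.29% lower and 8.19% higher. The 16 comprised 4 of the MCM2-7 genes, *Orc1* and *Cdc6* of origin licensing, *Gins2*, the polymerase subunits *Pola1*, *Pole* and *Pole2*, the clamp *Pcna* with *Rfc3* and *Rfc4* of its loader, the nuclease *Fen1*, and *Chaf1b* and *Uhrf1*. In 13 members every KO liver was below every WT liver (4.53% of all genes), and in 0 above (5.03%). At an unadjusted p under 0.05 the members numbered 25, beside 35.3% of all genes, and the 0 genes past the threshold in the higher direction compare with 1 in DESeq2, *Mcm10* (13.04% of all genes). With library sizes alone in place of TMM, which moved the median of all genes by -0.19, 14 members were lower and 0 higher, beside 6.93% and 3.01% of all genes. Without KO liver 5 the count of 16 became 22 lower and 1 higher, while the shares of all genes became 21.8% lower and 19.6% higher. It was 9, 8 and 7 without WT livers 1, 3 and 5 and 6, 8, 5 and 8 without KO livers 1, 2, 3 and 4, where 1.97% to 4.32% of all genes were lower. The calls of *Mcm2*, *Mcm3*, *Mcm6*, *Pole2* and *Chaf1b* held whichever liver was left out, that of *Uhrf1* was lost in 1 of 10 fits, those of *Pcna* and *Rfc4* in 4, and those of the other 8 in 6 to 9.

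**Figure D2:**
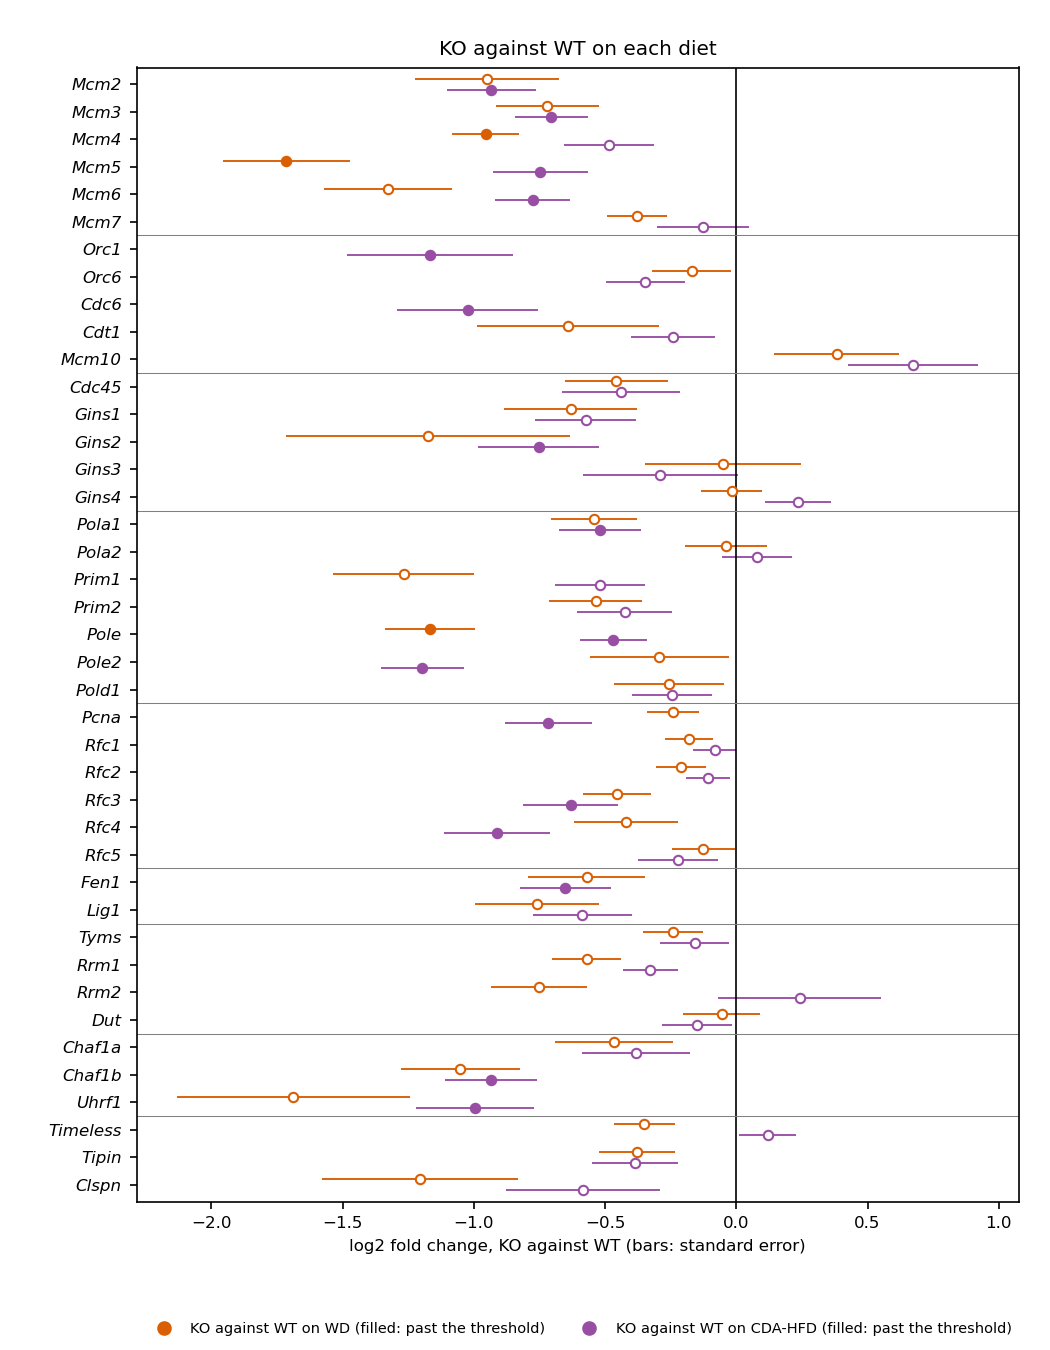
log2 fold change of KO against WT for each of the 41 genes, by role, on WD (orange) and CDA-HFD (purple), with standard errors as bars and filled points for genes past the threshold (3 on WD, 16 on CDA-HFD). *Orc1* and *Cdc6* have no point on WD because they did not pass the filter, and most points lie below 0 on both diets.

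The MCM2-7 helicase genes were the role group with the most calls on both diets. *Mcm5* (chr8:75109569-75128439) stood at 13.3, 10.6, 6.43, 8.73 and 14.6 CPM in WT livers, while KO livers had 4.23, 2.88, 3.63, 2.13 and 3.52 CPM on WD. Every KO liver was below every WT liver, and the fitted level was 3.28-fold lower (log2 fold change -1.72, SE 0.24, edgeR adjusted p = 0.0281). On CDA-HFD its levels were 13.2, 8.88, 11.3, 10.8 and 18.8 CPM in WT livers, while KO livers had 7.39, 8.18, 7.71, 7.06 and 7.38 CPM, again without overlap (log2 fold change -0.75, SE 0.18, edgeR adjusted p = 0.0241). *Mcm4* (chr16:15623897-15637400) measured 14, 11.5, 10.4, 13.1 and 13.7 CPM in WT livers, while KO livers had 7.54, 5.52, 7.18, 5.85 and 6.26 CPM on WD. The groups did not overlap (log2 fold change -0.96, SE 0.13, edgeR adjusted p = 0.0223), whereas on CDA-HFD the ranges of 11.9 to 20.5 CPM in WT livers against 8.45 to 13.5 CPM in KO livers did (log2 fold change -0.49, SE 0.17, edgeR adjusted p = 0.0738). *Mcm6*, with the highest mean level per kilobase of exon of the 6 in WT livers on WD (4.30 CPM per kb), was at 24.8, 18.7, 10.1, 20.7 and 26.1 CPM in WT livers, while KO livers had 11.2, 7.16, 9.04, 6.23 and 6.42 CPM on WD. WT liver 3 lay below KO liver 1, and the difference missed the threshold (log2 fold change -1.33, SE 0.24, edgeR adjusted p = 0.102). On CDA-HFD its levels were 27.4, 24, 25.7, 23.1 and 38.8 CPM in WT livers, against 16.5, 15, 14.7, 17 and 18.3 CPM in KO livers. *Mcm6* did not overlap there and was 1.71-fold lower (log2 fold change -0.78, SE 0.14, edgeR adjusted p = 0.0123), and it passed the threshold whichever liver was left out. The call of *Mcm5* was lost in 8 of 10 fits without 1 liver on WD and in 6 of 10 on CDA-HFD, and that of *Mcm4* in 8 of 10 on WD. *Mcm2* and *Mcm3* passed on CDA-HFD, with log2 fold changes of -0.93 (SE 0.17) and -0.70 (SE 0.14), and had -0.95 (SE 0.27) and -0.72 (SE 0.20) on WD. *Mcm7* had the log2 fold change closest to 0 of the 6 on both diets, -0.38 (SE 0.11) and -0.13 (SE 0.17). Joined over all its annotated transcripts, the exons of *Mcm7* overlap the microRNAs *Mir25* and *Mir93*, at 1.9% and 2.0% of the exon length.

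**Figure D3:**
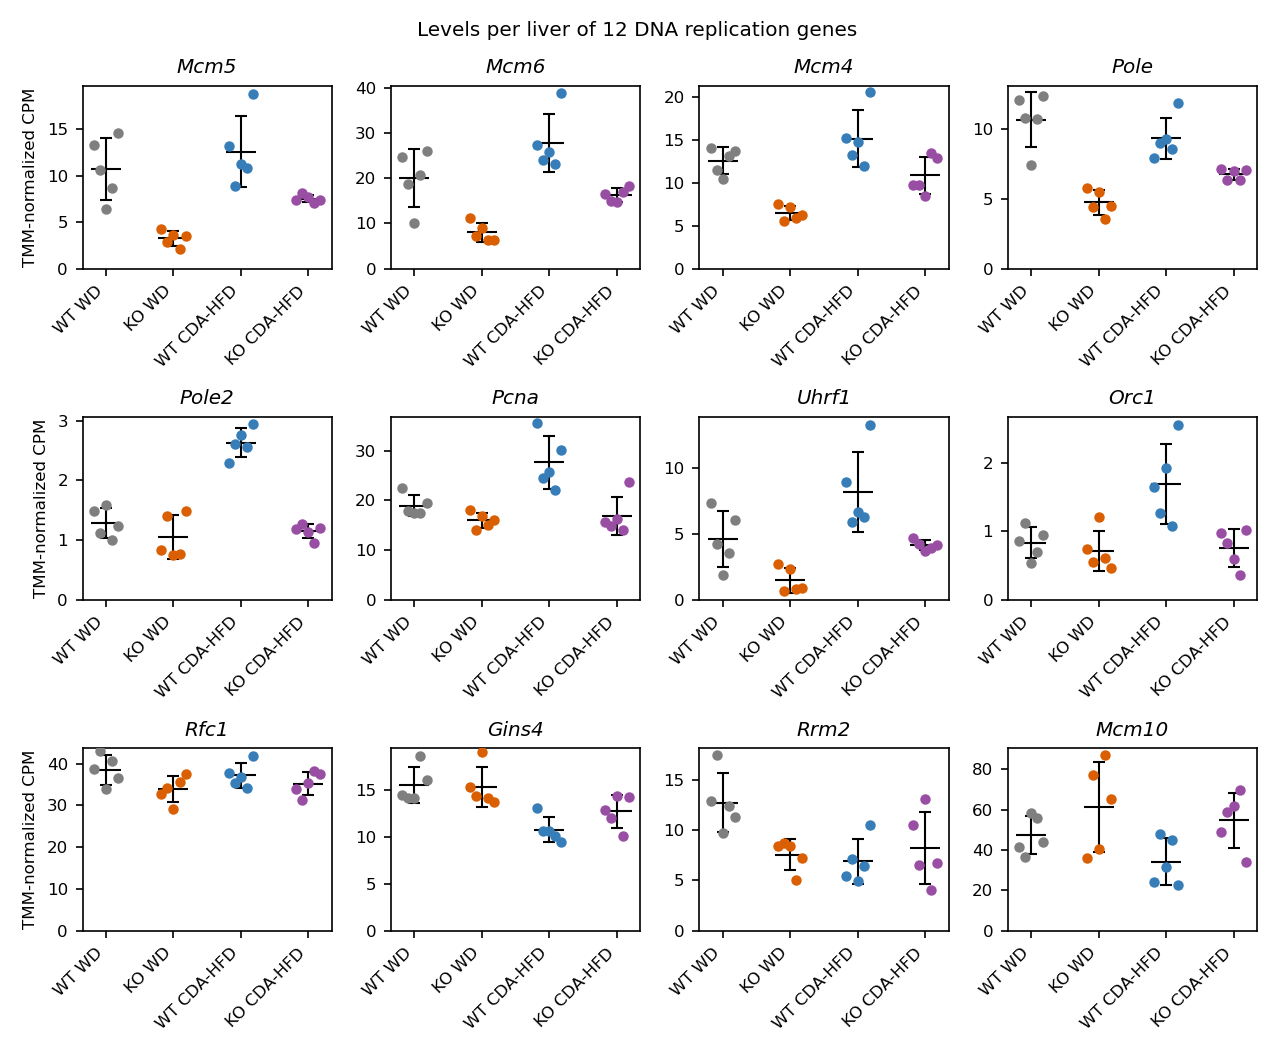
TMM-normalised CPM of 12 of the genes in each liver of the 4 groups (points), with the mean (long bar) and SD (short bars) of the 5 livers, on linear axes that start at 0. *Mcm5*, *Mcm4* and *Pole* do not overlap between WT and KO on WD, *Pole2* does not overlap on CDA-HFD, and *Rfc1*, *Gins4* and *Mcm10* overlap on both diets.

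Of the 5 genes grouped under origin licensing, with *Mcm10* among them, *Orc1* and *Cdc6* were lower in KO livers on CDA-HFD and none passed on WD. *Orc1*, the largest subunit of the origin recognition complex, was low in every group, at 0.862, 1.12, 0.53, 0.694 and 0.949 CPM in WT livers against 0.736, 0.544, 1.21, 0.608 and 0.47 CPM in KO livers on WD, where it was not tested. On CDA-HFD it was at 1.65, 1.27, 1.93, 1.07 and 2.57 CPM in WT livers, while KO livers had 0.975, 0.824, 0.598, 0.368 and 1.02 CPM. No KO liver reached the lowest WT liver, and the level was 2.25-fold lower (log2 fold change -1.17, SE 0.32, edgeR adjusted p = 0.0335). *Cdc6*, which recruits the helicase to origins, was at 2.22, 2.26, 1.38, 1.54 and 3.19 CPM in WT livers, while KO livers had 0.766, 1.39, 0.931, 1.18 and 0.96 CPM on CDA-HFD. KO liver 2 lay just above the lowest WT liver, and *Cdc6* was 2.03-fold lower (log2 fold change -1.02, SE 0.27, edgeR adjusted p = 0.0304). Exons of *Gm12743* on the opposite strand cover 10.8% of those of *Orc1*. Without one liver, the calls of *Orc1* and *Cdc6* were lost in 7 and 6 of 10 fits. *Cdt1*, the partner of CDC6, and *Orc6* did not pass on either diet, with log2 fold changes of -0.64 (SE 0.35) and -0.17 (SE 0.15) on WD and -0.24 (SE 0.16) and -0.35 (SE 0.15) on CDA-HFD. *Mcm10*, a factor that helps to activate the helicase and is not part of the MCM2-7 ring, had the highest log2 fold change of all members on both diets. It measured 41.5, 36.7, 58.3, 55.9 and 43.8 CPM in WT livers, while KO livers had 36.2, 77, 40.3, 87.4 and 65.5 CPM on WD. The CDA-HFD levels were 24, 47.7, 31.8, 45 and 22.5 CPM in WT livers, against 49.1, 58.9, 62, 69.7 and 33.9 CPM in KO livers. The livers overlapped on both diets, and neither difference passed the threshold (log2 fold changes 0.38, SE 0.24, edgeR adjusted p = 0.591 and 0.67, SE 0.25, edgeR adjusted p = 0.0835), although without KO liver 5 the difference on CDA-HFD did (0.81, SE 0.22, edgeR adjusted p = 0.0125). No exon of another annotated gene overlaps those of *Mcm10*.

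Of the genes grouped under helicase activation, *Gins2* passed on CDA-HFD, and the other 4 genes passed on neither diet. *Gins2* was at 3.3, 1.76, 1.77, 2.22 and 2.57 CPM in WT livers, while KO livers had 1.32, 1.52, 1.33, 0.956 and 1.74 CPM, without overlap (log2 fold change -0.75, SE 0.23, edgeR adjusted p = 0.0495). On WD, where it measured 0.605 to 2.26 CPM in WT livers against 0.076 to 1.4 CPM in KO livers, the log2 fold change was -1.17 (SE 0.54, edgeR adjusted p = 0.466). Most of the exon length of *Gins2* (67.3%) lies within exons of *Gse1* on the opposite strand. *Gins4*, another subunit of the same 4-subunit complex, measured 14.5, 14.2, 14.2, 18.6 and 16.1 CPM in WT livers, while KO livers had 15.4, 14.4, 19, 14.1 and 13.7 CPM on WD. Levels on CDA-HFD were 13.1, 10.6, 10.7, 10.1 and 9.42 CPM in WT livers, against 12.9, 12, 14.4, 10.1 and 14.2 CPM in KO livers. WT and KO livers overlapped on both diets, with log2 fold changes of -0.02 (SE 0.12, edgeR adjusted p = 0.977) and 0.23 (SE 0.13, edgeR adjusted p = 0.208). Per kilobase of exon, *Gins4* had the highest mean level of the 41 genes in WT livers on WD, 11.5 CPM per kb, against 0.33 to 1.98 CPM per kb for the other GINS genes. *Cdc45*, which joins GINS and MCM2-7 in the active helicase, was at 3.29, 3.27, 4.01, 5.75 and 4.09 CPM in WT livers, while KO livers had 3.04, 2.41, 2.42, 3.49 and 3.37 CPM on WD. On CDA-HFD the levels were 2.54, 2.26, 3.7, 3.09 and 4.18 CPM in WT livers, against 1.74, 3.11, 1.995, 2.72 and 2.16 CPM in KO livers. Its livers overlapped on both diets (log2 fold changes -0.46, SE 0.20, edgeR adjusted p = 0.445 and -0.44, SE 0.22, edgeR adjusted p = 0.185). *Gins1* and *Gins3* did not pass on either diet, with log2 fold changes of -0.63 (SE 0.25) and -0.05 (SE 0.30) on WD and -0.57 (SE 0.19) and -0.29 (SE 0.30) on CDA-HFD.

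Among the polymerases, both subunits of polymerase ε in the list were lower in KO livers, the catalytic subunit on both diets and the accessory subunit on CDA-HFD. *Pole*, the catalytic subunit of the leading-strand polymerase (chr5:110286306-110337474), stood at 12.1, 10.7, 7.42, 10.7 and 12.3 CPM in WT livers, while KO livers had 5.79, 4.43, 5.5, 3.57 and 4.46 CPM on WD. All 5 KO livers lay below all 5 WT livers (log2 fold change -1.17, SE 0.17, edgeR adjusted p = 0.0285). They did so again on CDA-HFD, where WT livers had 7.94, 8.95, 9.28, 8.53 and 11.8 CPM, against 7.11, 6.34, 6.98, 6.32 and 7.02 CPM in KO livers (log2 fold change -0.47, SE 0.13, edgeR adjusted p = 0.0334). The call of *Pole* was lost in 9 of 10 fits without 1 liver on WD and in 7 of 10 on CDA-HFD. *Pole2*, of which 8.5% of the exon length is shared with *Gm49384* on the same strand, had the lowest log2 fold change of all members on CDA-HFD, where it measured 2.29, 2.61, 2.76, 2.55 and 2.95 CPM in WT livers, while KO livers had 1.18, 1.27, 1.13, 0.956 and 1.2 CPM. The groups were well apart, at a 2.29-fold lower level in KO (log2 fold change -1.196, SE 0.16, edgeR adjusted p = 0.00519), and the call held whichever liver was left out. On WD the *Pole2* livers overlapped, at 1.49, 1.12, 1.59, 0.992 and 1.24 CPM in WT livers, while KO livers had 0.828, 1.4, 0.746, 0.76 and 1.49 CPM (log2 fold change -0.29, SE 0.26, edgeR adjusted p = 0.724). *Pola1*, the catalytic subunit of the priming polymerase α, was at 22, 17.1, 20.9, 17.1 and 24.6 CPM in WT livers, while KO livers had 13, 11, 12.9, 15.1 and 19.3 CPM on CDA-HFD. KO liver 5 reached into the WT range (log2 fold change -0.52, SE 0.16, edgeR adjusted p = 0.0477), and the call was lost in 8 of 10 fits without 1 liver. On WD *Pola1* measured 19, 13.8, 9.84, 17.2 and 13.6 CPM in WT livers, against 11.5, 8.48, 10.8, 9.57 and 9.94 CPM in KO livers, and WT liver 3 lay within the KO range (log2 fold change -0.54, SE 0.16, edgeR adjusted p = 0.289). *Pola2*, the other subunit of polymerase α, stood at 13.9, 13, 8.78, 10.1 and 10.9 CPM in WT livers, while KO livers had 13.5, 10.3, 13, 9.12 and 9.4 CPM on WD. The CDA-HFD levels were 9.85, 7.82, 9.56, 8.93 and 8.94 CPM in WT livers, against 8.29, 12.5, 8.78, 9.7 and 8.46 CPM in KO livers. Its livers overlapped, its log2 fold changes were close to 0 (-0.04, SE 0.16, edgeR adjusted p = 0.955 and 0.08, SE 0.13, edgeR adjusted p = 0.701), and their sign changed when single livers were left out. *Prim1*, the primase that lays the RNA primer, was at 2.98, 3.35, 1.29, 2.98 and 2.99 CPM in WT livers, while KO livers had 1.2, 0.856, 1.4, 0.912 and 1.25 CPM on WD. WT liver 3 lay among the KO livers and the other 4 WT livers above them, and the adjusted p missed the threshold (log2 fold change -1.27, SE 0.27, edgeR adjusted p = 0.14), while DESeq2 called it (adjusted p = 0.0130). On CDA-HFD the *Prim1* livers did not overlap, at 3.94, 3.45, 4.09, 3.42 and 5.37 CPM in WT livers, while KO livers had 3.07, 2.6, 2.33, 2.94 and 3.3 CPM (log2 fold change -0.52, SE 0.17, edgeR adjusted p = 0.0601). *Prim2* and *Pold1*, the catalytic subunit of polymerase δ, did not pass on either diet. Their log2 fold changes were -0.54 (SE 0.18) and -0.26 (SE 0.21) on WD and -0.42 (SE 0.18) and -0.25 (SE 0.15) on CDA-HFD.

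Of the sliding clamp and its loader, *Pcna*, *Rfc3* and *Rfc4* were lower in KO livers on CDA-HFD, and none of the 6 genes passed on WD. *Pcna*, the ring that tethers polymerases to DNA, stood at 35.7, 24.5, 25.6, 22.2 and 30.2 CPM in WT livers, while KO livers had 15.5, 14.8, 16.2, 14 and 23.6 CPM. Only KO liver 5 reached the WT range (log2 fold change -0.72, SE 0.17, edgeR adjusted p = 0.0213). On WD the levels were 22.4, 17.9, 17.5, 17.4 and 19.4 CPM in WT livers, against 18, 14.1, 16.8, 15 and 16.1 CPM in KO livers (log2 fold change -0.24, SE 0.10, edgeR adjusted p = 0.428). *Rfc4* was 1.88-fold lower on CDA-HFD without overlap (log2 fold change -0.91, SE 0.20, edgeR adjusted p = 0.0184), and *Rfc3* 1.55-fold lower with overlap (log2 fold change -0.63, SE 0.18, edgeR adjusted p = 0.0395). *Rfc1*, the large subunit of the loader, had 38.6, 43.1, 33.8, 40.6 and 36.5 CPM in WT livers, while KO livers had 32.8, 34.1, 29.3, 35.6 and 37.6 CPM on WD. Levels on CDA-HFD were 37.7, 35.3, 36.7, 34.2 and 41.9 CPM in WT livers, against 33.9, 31.2, 35.4, 38.2 and 37.6 CPM in KO livers. The livers overlapped on both diets (log2 fold changes -0.18, SE 0.09, edgeR adjusted p = 0.506 and -0.08, SE 0.08, edgeR adjusted p = 0.488). *Rfc5* measured 8.7, 6.79, 8.85, 8.33 and 8.39 CPM in WT livers, while KO livers had 7.08, 8.56, 7.92, 6.76 and 7.28 CPM on WD. On CDA-HFD the levels were 7.18, 6.56, 7.95, 6.51 and 7.32 CPM in WT livers, against 5.02, 6.59, 7.91, 4.78 and 6.24 CPM in KO livers. It overlapped on both diets (log2 fold changes -0.13, SE 0.12, edgeR adjusted p = 0.737 and -0.22, SE 0.15, edgeR adjusted p = 0.314), as did *Rfc2*, with log2 fold changes of -0.21 (SE 0.10) and -0.11 (SE 0.08). The pseudogenes *Pcna-ps1* and *Pcna-ps2* could share reads with *Pcna*, and 12.7% of the exon length of *Rfc4* overlaps *Eif4a2* on the other strand.

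Okazaki fragment maturation is represented by the flap nuclease *Fen1* and the ligase *Lig1*. *Fen1* passed on CDA-HFD with 9.91, 8.18, 7.4, 7.85 and 11.9 CPM in WT livers, while KO livers had 5.5, 6.15, 4.65, 5.07 and 7.5 CPM, of which KO liver 5 alone reached the lowest WT liver (log2 fold change -0.65, SE 0.17, edgeR adjusted p = 0.0319). Since 78.8% of its exon length overlaps the antisense gene *Gm10143*, reads of both may be mixed. *Lig1* measured 8.46, 10.1, 5.07, 9.62 and 8.54 CPM in WT livers, while KO livers had 5.7, 5.13, 7.08, 3.27 and 3.52 CPM on WD. The CDA-HFD levels were 12.3, 9.02, 11.8, 10.003 and 15 CPM in WT livers, against 8.01, 7.48, 7.45, 5.29 and 10.6 CPM in KO livers. One liver of each diet crossed over, WT liver 3 on WD and KO liver 5 on CDA-HFD, and neither difference passed (log2 fold changes -0.76, SE 0.24, edgeR adjusted p = 0.305 and -0.59, SE 0.19, edgeR adjusted p = 0.0553). None of the 4 genes of nucleotide supply passed in KO against WT by edgeR, whereas DESeq2 called *Rrm1* and *Rrm2*, the subunits of ribonucleotide reductase, on WD and *Rrm1* on CDA-HFD. *Rrm1* was at 22.8, 21.5, 17.3, 17.8 and 23.3 CPM in WT livers, while KO livers had 17.6, 12.7, 14.8, 11.3 and 12.8 CPM on WD, with WT liver 3 just below KO liver 1 (log2 fold change -0.57, SE 0.13, edgeR adjusted p = 0.18). On CDA-HFD its 24.6, 20.4, 21.6, 21.7 and 27.2 CPM in WT livers and 16.7, 19.5, 20.1, 19.6 and 16.4 CPM in KO livers did not overlap (log2 fold change -0.33, SE 0.10, edgeR adjusted p = 0.054). *Rrm2* had 12.9, 17.5, 9.69, 12.4 and 11.3 CPM in WT livers, while KO livers had 8.46, 8.71, 8.48, 5.01 and 7.2 CPM on WD, without overlap. On CDA-HFD, with 5.4, 7.12, 4.97, 6.44 and 10.6 CPM in WT livers against 10.5, 6.59, 13.1, 4.04 and 6.72 CPM in KO livers, KO liver 3 was above every WT liver and KO liver 1 above 4 of them. Its log2 fold changes were -0.75 (SE 0.18, edgeR adjusted p = 0.204) on WD and 0.24 (SE 0.31, edgeR adjusted p = 0.602) on CDA-HFD. *Tyms*, thymidylate synthase, and *Dut*, which clears dUTP, had -0.24 (SE 0.11) and -0.06 (SE 0.15) on WD and -0.16 (SE 0.13) and -0.15 (SE 0.13) on CDA-HFD.

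Chromatin assembly and methylation maintenance had the lowest median log2 fold change of the 9 role groups on both diets, -1.05 on WD and -0.94 on CDA-HFD. *Uhrf1*, which brings the maintenance methyltransferase to newly copied DNA (chr17:56303321-56323486), stood at 7.37, 4.21, 1.89, 3.57 and 6.06 CPM in WT livers, while KO livers had 2.67, 0.622, 2.33, 0.836 and 0.861 CPM on WD. WT liver 3 overlapped KO livers 1 and 3, and a 3.22-fold lower level did not pass (log2 fold change -1.69, SE 0.44, edgeR adjusted p = 0.243). On CDA-HFD, at 8.9, 5.85, 6.68, 6.24 and 13.2 CPM in WT livers, while KO livers had 4.67, 4.25, 3.66, 3.9 and 4.14 CPM, the groups were separate (log2 fold change -0.996, SE 0.22, edgeR adjusted p = 0.0194). *Chaf1b*, a subunit of the histone chaperone CAF-1, did not overlap on either diet. On WD its levels were 2.98, 3.18, 2.27, 2.68 and 2.55 CPM against 1.84, 1.01, 1.77, 0.912 and 1.1 CPM in KO livers (log2 fold change -1.05, SE 0.23, edgeR adjusted p = 0.155). On CDA-HFD they were 4.07, 3.17, 3.37, 3.29 and 4.8 CPM against 1.81, 1.96, 1.8, 1.76 and 2.46 CPM (log2 fold change -0.94, SE 0.17, edgeR adjusted p = 0.013). Its partner *Chaf1a*, which shares 52.5% of its exon length with *Ubxn6* on the opposite strand, had -0.47 (SE 0.23) and -0.38 (SE 0.21). The fork protection genes did not pass in KO against WT. *Timeless* measured 13.4, 12.1, 11.5, 11.1 and 13.4 CPM in WT livers, while KO livers had 9.66, 9.88, 11.6, 8.96 and 8.07 CPM on WD. Levels on CDA-HFD were 10.4, 11.1, 10.4, 11.4 and 11.3 CPM in WT livers, against 13.9, 11.3, 12.8, 11.2 and 10.3 CPM in KO livers. Its livers overlapped on both diets (log2 fold changes -0.35, SE 0.12, edgeR adjusted p = 0.319 and 0.12, SE 0.11, edgeR adjusted p = 0.447). *Tipin*, its partner, had -0.38 (SE 0.14) and -0.39 (SE 0.16). *Clspn*, the adaptor of the replication checkpoint, was at 2.27, 2.06, 1.06, 1.98 and 1.31 CPM in WT livers, while KO livers had 1.1, 0.389, 1.4, 0.532 and 0.392 CPM on WD, where WT livers 3 and 5 lay within the KO range (log2 fold change -1.21, SE 0.37, edgeR adjusted p = 0.305). On CDA-HFD it had 2.8, 1.9, 2.43, 1.54 and 4.42 CPM in WT livers, against 2.02, 1.33, 1.66, 1.4 and 2.4 CPM in KO livers (log2 fold change -0.58, SE 0.29, edgeR adjusted p = 0.178).

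**Figure D4:**
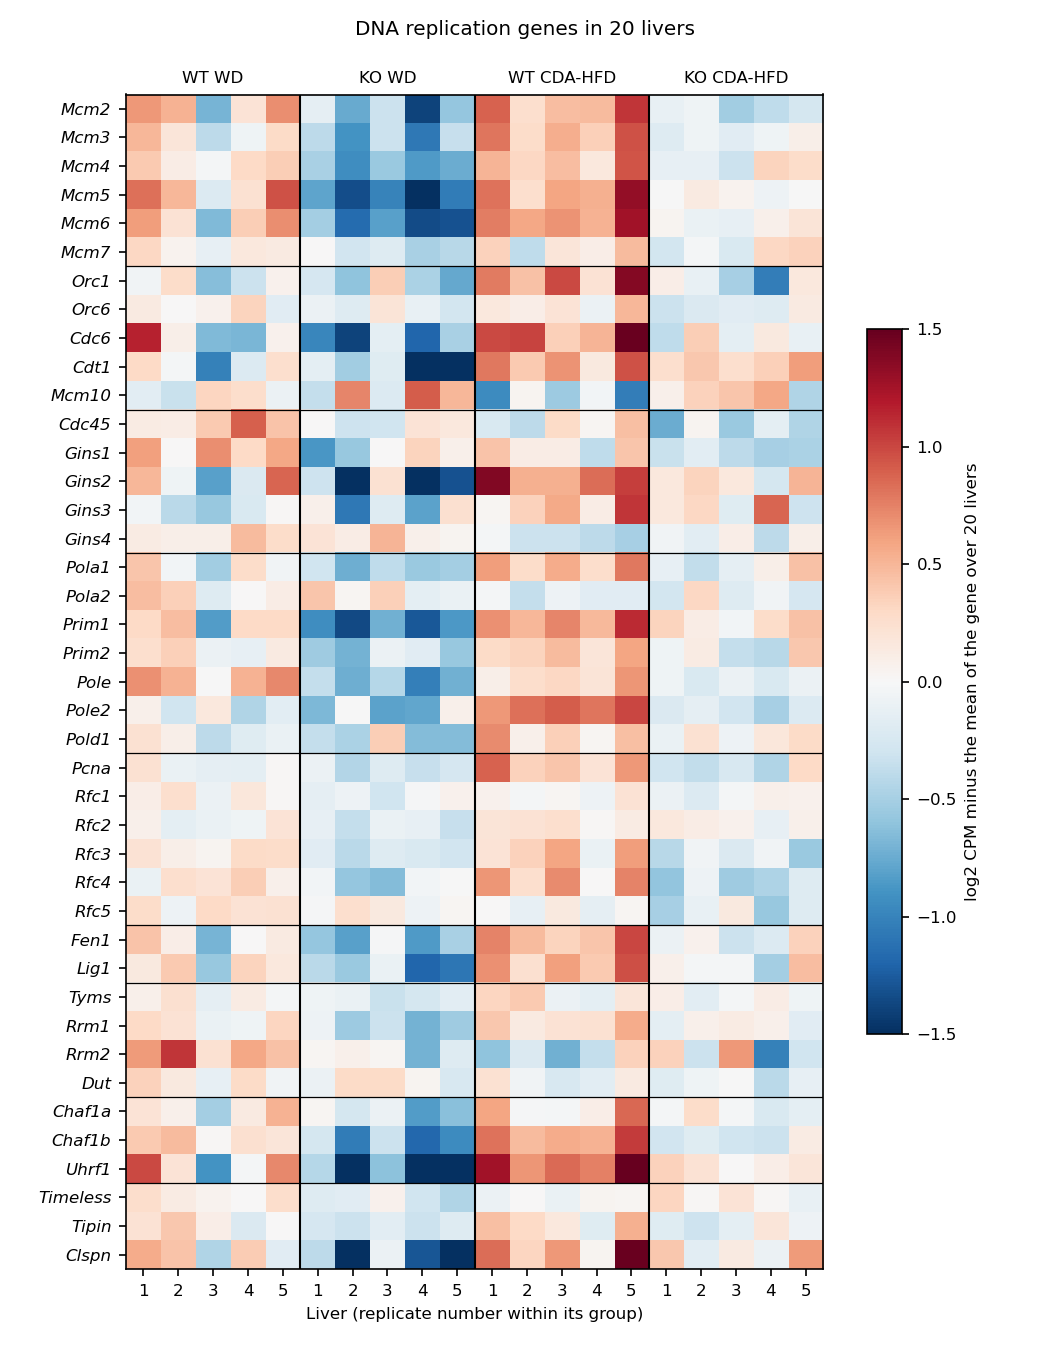
log2 CPM of the 41 genes in the 20 livers, each gene centred on its mean over all livers and colours cut at -1.5 and 1.5, with black lines between groups and between role groups. KO livers on WD are mostly blue and WT livers on CDA-HFD mostly red, and WT liver 3 on WD is bluer than its group.

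Over the 4 groups, the mean level was lowest in KO livers on WD in 31 of the 41 genes and highest in WT livers on CDA-HFD in 30. This order was not counted over all genes, so it cannot be called particular to the members. In WT livers, CDA-HFD against WD had 9 members higher (*Mcm3*, *Orc1*, *Cdt1*, *Gins3*, *Pola1*, *Pole2*, *Pcna*, *Fen1* and *Chaf1b*) and 2 lower (*Gins4* and *Rrm2*), at a median log2 fold change of 0.26. The log2 fold change was below 0 in 11 (50.2% of all genes), and 17 had an unadjusted p under 0.05 (57.2%). The share of members that passed is below that of all genes tested, 51.1%, of which 25.9% were higher and 25.2% lower. The livers were separate in 3 members upwards (19.3% of all genes) and in 1 downwards (17.8%). With library sizes alone in place of TMM, 29 members were higher and 0 lower, as 54.5% and 9.39% of all genes were, and that scaling moved the median of all genes by 0.42. *Pole2* showed the clearest difference, from the 0.992 to 1.59 CPM given above on WD to 2.29 to 2.95 CPM on CDA-HFD, without overlap and 2.02-fold higher (log2 fold change 1.01, SE 0.17, edgeR adjusted p = 0.000576). *Orc1* was 2.05-fold higher with overlapping livers (log2 fold change 1.04, SE 0.29, edgeR adjusted p = 0.0104), and *Cdc6* at 2.51, 1.12, 0.605, 0.595 and 1.09 CPM on WD had 0.82 (SE 0.38, edgeR adjusted p = 0.0905). In KO livers on WD, *Cdc6* was at 0.46, 0.311, 0.932, 0.38 and 0.705 CPM. *Gins4* was 1.45-fold lower on CDA-HFD without overlap (log2 fold change -0.53, SE 0.12, edgeR adjusted p = 0.00253), and *Rrm2* 1.85-fold lower with overlap through WT liver 5 (log2 fold change -0.89, SE 0.22, edgeR adjusted p = 0.00526). *Mcm10* had -0.47 (SE 0.22, edgeR adjusted p = 0.0893). The 11 calls numbered 5 to 15 with one liver left out: 7 without WT liver 3 or 4 on WD, and 6 and 5 without WT livers 1 and 5 on CDA-HFD. Over the fits without one liver, 44.8% to 50.9% of all genes passed, beside the 51.1% with all livers.

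In KO livers, 9 of the 40 members tested (all but *Orc1*) were higher on CDA-HFD than on WD and 0 lower, at a median of 0.32, while 17.0% of all genes passed and 9.19% were higher. These were *Mcm4*, *Mcm5*, *Mcm6*, *Cdt1*, *Prim1*, *Pole*, *Rrm1*, *Uhrf1* and *Clspn*. DESeq2 called 11 higher and 0 lower, with 11.8% and 10.6% of all genes, and at an unadjusted p under 0.05 the members numbered 18, against 33.3% of all genes. The log2 fold change was below 0 in 9 (49.5% of all genes), and the livers were separate in 8 members upwards (8.09%) and in 0 downwards (7.14%). *Uhrf1* was 2.85-fold higher (log2 fold change 1.51, SE 0.36, edgeR adjusted p = 0.018) and *Prim1* 2.53-fold higher (log2 fold change 1.34, SE 0.21, edgeR adjusted p = 0.00193), both without overlap. *Mcm5* (log2 fold change 1.201, SE 0.18, edgeR adjusted p = 0.00158) and *Mcm6* (log2 fold change 1.02, SE 0.17, edgeR adjusted p = 0.00263) were separate between the diets as well, and *Clspn* overlapped (log2 fold change 1.23, SE 0.37, edgeR adjusted p = 0.0411). The lowest log2 fold changes, -0.34 (SE 0.21) for *Cdc45*, -0.30 (SE 0.16) for *Rfc5* and -0.27 (SE 0.13) for *Gins4*, did not pass. The count of 9 was 5 without any one of KO livers 2, 4 and 5 on WD, where 4.57% to 5.42% of all genes were higher, and 7 without KO liver 5 on CDA-HFD, where 9.03% were. With library sizes alone, which moved the median of all genes by 0.25, 17 members were higher and 0 lower, beside 20.6% and 3.37% of all genes.

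Whether the KO difference itself depended on diet was tested as an interaction over all 20 livers, and 0 of the 41 members passed (0.556% of all genes did). At an unadjusted p under 0.05 the members numbered 8, against 15.4% of all genes, and DESeq2 also called 0. The smallest edgeR adjusted p was 0.132, for *Pole*, where the log2 fold change on CDA-HFD minus that on WD was 0.70 (SE 0.21). *Timeless* had 0.48 (SE 0.15, edgeR adjusted p = 0.15) and *Mcm5* 0.97 (SE 0.31, edgeR adjusted p = 0.161). *Pole2* had the opposite sign at -0.89 (SE 0.29, edgeR adjusted p = 0.168), and *Rrm2* had 0.999 (SE 0.38, edgeR adjusted p = 0.218). A p that misses the threshold does not show that the KO differences were alike on the diets. Without KO liver 5 on CDA-HFD, 3 members passed: *Pcna* (-0.62, edgeR adjusted p = 0.0248), *Timeless* (0.53, edgeR adjusted p = 0.0277) and *Pole* (0.69, edgeR adjusted p = 0.0485). In that fit 11.9% of all genes passed, a larger share than the 3 of 41 members.

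Within groups, many members had their lowest or highest level in the same liver. In WT livers on WD, liver 3 was the lowest of the 5 in 28 of the 41 genes (68.3%), compared with 24.9% of all genes tested, and its MCM2-7 genes summed to 55.3 CPM, below KO liver 1 (55.9 CPM) and against 81.7 to 102 CPM in the other WT livers. The same liver had the lowest sum of the 18 macrophage markers of its group (540 CPM, against 630 to 1572) and of the 18 mitosis markers (35.3 CPM, against 65.6 to 104). Among the WT livers on CDA-HFD, number 5 was the highest in 29 of the 41 genes (70.7%, and 17.7% of all genes), with an MCM2-7 sum of 142 CPM against 82.8 to 113 in the others. Its mitosis markers were also the highest (183 CPM, against 132 to 160), and its macrophage markers at 3580 CPM were not. These livers and counts were looked at after the values had been seen.

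KO liver 5 on CDA-HFD had a summed CPM of the 18 macrophage markers within the range of the WT livers. By the mean log2 CPM of these markers it was intermediate, at 5.75. The WT livers of that diet had at least 5.97 and the other KO livers at most 5.44. The replication gene levels of this liver were below all WT livers in most of the members that separated the other KO livers from WT. Its MCM2-7 genes summed to 78.0 CPM, while the remaining KO livers had 60.4 to 74.7 CPM and the WT livers 82.8 to 142 CPM. *Mcm2* illustrates this with 19.3, 12.4, 14.4, 14.4 and 22.1 CPM in WT livers, while KO livers had 9.62, 9.95, 7.18, 7.94 and 8.64 CPM. Within its own group, liver 5 was the highest in 16 of the 41 genes (39%, and 35.4% of all genes). It was the lowest in 5 (12.2%, and 34% of all genes). In 19 members the other 4 KO livers were all below every WT liver, and in 13 of these (68.4%) liver 5 was below as well. The same held for 780 of 3054 genes over the whole table (25.5%), for 1 of 13 macrophage markers and for 8 of 11 mitosis markers. The 6 members in which liver 5 reached the WT range were *Pcna*, *Pola1*, *Prim2*, *Fen1*, *Lig1* and *Orc6*. Like the macrophage sum, the stellate cell and fibroblast sum of this liver (4367 CPM) lay far above the other KO livers (1384 to 1579 CPM), and its cholangiocyte sum (671 CPM) did too (84.9 to 190 CPM), while its hepatocyte sum was the lowest of the 10 KO livers. The gene *Spp1* is in both the macrophage and the cholangiocyte list, so these sums are not independent. In the comparison on CDA-HFD, 6 of the 18 macrophage markers were lower in KO livers and 1 higher (median -0.86), 5 of 5 neutrophil markers tested were lower (median -2.40), 2 of 11 stellate cell and fibroblast markers were lower (median -0.997), and none of the 7 cholangiocyte (median -0.70), 8 hepatocyte (median 0.69), 11 endothelial (median 0.23) or 12 lymphocyte markers tested (median -0.19) passed. Over all genes 7.29% were lower and 8.19% higher in that comparison. On WD none of the markers passed, beside 0.0757% of all genes, with medians of -0.46 for macrophages and -1.33 for the 3 neutrophil markers tested. Without KO liver 5 on CDA-HFD, 21.8% of all genes were lower and 19.6% higher. In that fit 13 macrophage markers were lower and 3 higher, and 5 neutrophil, 9 stellate cell and fibroblast and 6 cholangiocyte markers were lower. Of the others, 4 hepatocyte markers were higher, 6 endothelial markers were higher and 1 lower, and 0 of the 12 lymphocyte markers passed. The part of these cells in the levels of the replication genes was not tested.

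**Figure D5:**
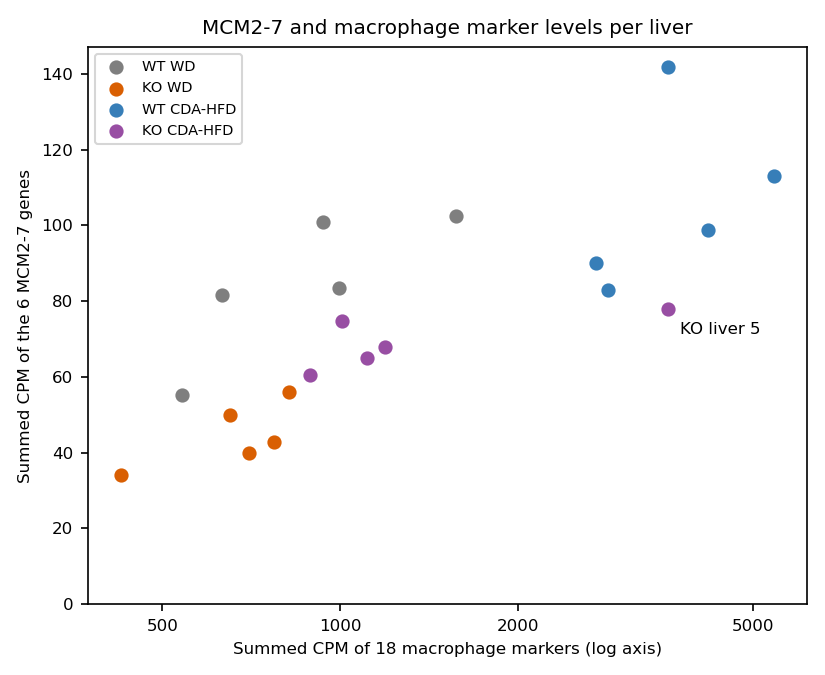
Summed CPM of the 6 MCM2-7 genes (linear axis from 0) against summed CPM of 18 macrophage markers (log axis) in each of the 20 livers, coloured by group. KO liver 5 on CDA-HFD lies at 3584 CPM of macrophage markers, among the WT livers of that diet, and at 78.0 CPM of MCM2-7, below all of them.

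The remaining genes of the pathway were described by lists compiled by function. For comparison with the counts of KO against WT, 7.29% of all genes were lower and 8.19% higher on CDA-HFD, and 0.0757% passed on WD. Of 46 other replication factors, 4 of 44 tested were lower in KO livers on CDA-HFD (*Cdc7*, *Topbp1*, *Dnmt1* and *Slbp*) and none of 40 passed on WD, with medians of -0.22 and -0.10. *Cdc7*, the kinase that fires licensed origins, was at 1.74 ± 0.502 CPM in WT livers against 0.787 ± 0.182 CPM in KO livers on CDA-HFD (SD, n = 5; log2 fold change -1.14, SE 0.25, edgeR adjusted p = 0.0189), and *Dnmt1*, the methyltransferase that UHRF1 recruits, at 42.3 ± 5.26 and 31.5 ± 2.60 CPM (-0.43, SE 0.10, edgeR adjusted p = 0.0199). Of 30 regulators of the step from G1 to S, 29 were tested on each diet: none passed on WD, and on CDA-HFD 4 were lower (*Ccna2*, *Ccnd2*, *Rb1* and *Rbl1*) and 2 higher (*E2f8* and *Rbl2*). *Ccnd2*, a D-type cyclin, measured 65.1 ± 7.22 CPM in WT livers against 42.5 ± 7.56 CPM in KO livers there (SD, n = 5; log2 fold change -0.62, SE 0.13, edgeR adjusted p = 0.0162), and *Rbl1*, which encodes the pocket protein p107, 14.7 ± 2.55 and 9.51 ± 0.620 CPM (-0.63, SE 0.12, edgeR adjusted p = 0.0142). The 18 mitosis markers, whose proteins act after S phase, had medians of -1.02 on WD, where 0 of 16 tested passed, and -0.71 on CDA-HFD, where 8 of 18 were lower. Among them *Bub1*, of the spindle checkpoint, stood at 2.92 ± 0.417 CPM in WT livers against 0.822 ± 0.260 CPM in KO livers on CDA-HFD (SD, n = 5; log2 fold change -1.83, SE 0.23, edgeR adjusted p = 0.00445). *Mki67*, which encodes the proliferation marker Ki-67, stood at 47.2 ± 5.32 CPM in WT livers against 22.8 ± 5.51 CPM in KO livers on CDA-HFD (SD, n = 5; log2 fold change -1.05, SE 0.16, edgeR adjusted p = 0.00831), and on WD it had -1.25 (SE 0.30, edgeR adjusted p = 0.204). With CDA-HFD against WD, 14 of 18 mitosis markers were higher in WT livers and 13 of 16 in KO livers, at medians of 1.01 and 1.27, whereas the medians of the replication genes were 0.26 and 0.32. Over all genes 25.9% were higher in WT livers and 9.19% in KO livers. Without KO liver 5, the counts in KO against WT on CDA-HFD became 11 of 44 lower and 4 higher for the other replication factors. They became 6 of 29 lower and 3 higher for the regulators of G1 to S and 11 of 18 lower for the mitosis markers. In that fit 21.8% of all genes were lower and 19.6% higher. Also without that liver, 13 of 16 mitosis markers were higher on CDA-HFD in KO livers, beside 9.03% of all genes.

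The counts of members with and without the promoter letters are given as a description with no test. On CDA-HFD, 9 of the 15 members with E2F letters were lower in KO livers (median -0.63), as were 5 of the 18 with a window and no such letters (median -0.34) and 2 of the 8 with no window (median -0.45), beside the 7.29% of all genes given above. Without KO liver 5 these counts were 10, 8 and 4, and 21.8% of all genes were lower. On WD 1 of 13, 0 of 18 and 2 of 8 were lower, at medians of -0.64, -0.39 and -0.58, beside 0.0631% of all genes. In WT livers, 6 of the 15 with E2F letters were higher on CDA-HFD than on WD, among them *Orc1*, *Pole2* and *Mcm3*, against 3 of the 18 without and 25.9% of all genes. Of the 5 members with a log2 fold change above 0 on CDA-HFD, *Mcm10*, *Rrm2*, *Timeless* and *Pola2* are among the 18 without these letters, and *Gins4* had no window. With library sizes alone in place of TMM, *Timeless* and *Pola2* were at -0.08 and -0.12.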

How the data were processed

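Raw read counts per gene symbol were taken as the authors deposited them, in one table of 20 livers. The genome build is mm10 by the submitters' processing notes. The aligner, the counter, their versions and the use of strand in counting are not given in the sources used here, so that reads of a gene and of one overlapping it on the other strand may be mixed. The labels name a directional library kit, and the study's methods another kit with single-end reads of 75 bases. The 5 table entries for reads assigned to no gene (50.3% to 57.0% of the reads in each liver) were left out of library sizes and tests. Depth limits the genes of lowest level, such as *Orc1* and *Cdc6*, and intervals of a fit cover the spread between livers.

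Counts were tested with edgeR 4.0.16 in R 4.3.3 (filterByExpr, TMM scaling, quasi-likelihood F test, Benjamini-Hochberg adjustment over all genes tested, threshold 0.05), in separate fits of the 10 livers compared, or of all 20 for the interaction. Fold changes are log2, with a standard error (SE) taken as the absolute log2 fold change over the square root of the F statistic. CPM values use TMM over all 20 livers, and log2 CPM a prior count of 2. Exact permutation tests compared the mean log2 CPM of 5 against 5 livers. The fits were tested on simulated counts, with changes larger than most of those described here. How they recover smaller changes was not tested. No liver was a copy of another in its group: over 40 pairs, squared differences of the counts were 6.24 to 110 times what sampling noise gives. Pairs of livers from different groups were not compared in this way. Alternatives were RLE size factors, library sizes alone, DESeq2 1.42.0, other filters on low counts, a block for the replicate number, 1 fit of all livers, and leaving out each liver. Counts of the lists without KO liver 5 on CDA-HFD were added after seeing the data.

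The members and all lists were chosen with earlier results of these data known. Values in every liver are given for the member with the highest mean CPM in each role group, for the 3 members with the highest and the 3 with the lowest log2 fold change in each comparison of groups, and for members that passed the threshold against the direction of most. From the pathway lists, the 2 genes with the smallest adjusted p in KO against WT on CDA-HFD are given. *Mcm2*, *Mcm4*, *Pole*, *Gins2*, *Pcna*, *Fen1* and *Chaf1b* were added after their values were seen. Gene positions and overlaps come from GENCODE M21 and promoter windows from RefSeq, both on GRCm38, which mm10 also denotes.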

Additional observations from a re-analysis of the deposited data

Results flagged for a closer look

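In 4 groups of 5 livers, of 84 looked at over 21 members, 1 liver stood apart from the other 4 by the gap to its neighbour as a share of the range of the group. Chance gives about 5% of groups, or 4.2 of 84. *Prim1* in WT liver 3 on WD lay at 1.29 CPM, below 2.98 to 3.35 CPM in the others, with a gap of 0.817 of the range. *Rfc5* in WT liver 2 on WD lay at 6.79 CPM, below 8.33 to 8.85 CPM (0.747 of the range). *Cdc6* in WT liver 1 on WD lay at 2.51 CPM, above 0.595 to 1.12 CPM (0.727 of the range). *Mcm6* in WT liver 5 on CDA-HFD lay at 38.8 CPM, above 23.1 to 27.4 CPM (0.726 of the range). None of the 21 members passed the threshold for a KO difference that changed with diet.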

How the results depend on the processing

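RLE size factors and both filters on low counts left each count of members past the threshold within 1.5 times its value. In KO against WT on WD, the 3 lower members became 0 with library sizes alone, 9 with DESeq2, 0 with the replicate block, 6 with all 20 livers in 1 fit, and 0 to 5 with 1 liver left out. In the same order, 0.0505%, 1.08%, 0.0126%, 0.146%, and 0.00617% to 0.206% of all genes passed, beside 0.0757% in the fit reported above. On CDA-HFD, the 16 calls became 5 to 23 with 1 liver left out (5 to 22 lower and 0 to 1 higher), and the count of higher members was 1 with DESeq2 and 1 with the replicate block. With CDA-HFD against WD in WT livers, the 11 calls became 29 with library sizes alone (29 higher and 0 lower), 17 with DESeq2 (14 higher), and 5 to 15 with 1 liver left out (3 to 12 higher and 2 to 3 lower). In the same order, 63.9%, 52.7%, and 44.8% to 50.9% of all genes passed. In KO livers, the 9 higher members became 17 with library sizes alone, 5 with the replicate block, 15 with all 20 livers in 1 fit and 5 to 13 with 1 liver left out. In the same order, 20.6%, 6.35%, 14.5%, and 4.57% to 9.36% of all genes were higher, beside 9.19% in the fit reported above. The interaction gave 0 to 3 calls with 1 liver left out (0 to 1 lower and 0 to 2 higher), 0 with the replicate block, and 0 under the other settings. Of all genes, 0.194% to 11.9% passed with 1 liver left out and 0.354% with the replicate block. Livers with the same number in the labels share only that number: their deviations from the group means correlated at -0.268 to 0.284 in KO against WT on WD and -0.367 to 0.347 on CDA-HFD, and at -0.145 to 0.334 and -0.174 to 0.349 between diets in WT and KO livers, and in 1, 2, 1 and 1 of 5 pairs did a liver correlate best with its own number. With the replicate block the counts were 0 on WD, 14 lower and 1 higher on CDA-HFD, 16 between diets in WT livers and 5 in KO livers. With that block 0.0126% of all genes passed on WD, and 7.27% were lower and 7.02% higher on CDA-HFD. Between diets, 49.9% of all genes passed in WT livers and 12.5% in KO livers. The sign of the log2 fold change turned in KO against WT on WD for *Gins4* (-0.112 to 0.0558 with 1 liver left out) and *Pola2* (-0.131 to 0.0475), and on CDA-HFD for *Pola2* (-0.0386 to 0.126, and -0.12 with library sizes alone) and *Timeless* (-0.0803 with library sizes alone). Between diets in WT livers it turned with library sizes alone for *Rfc1* (0.37), *Timeless* (0.24), *Rfc5* (0.22), *Pole* (0.22), *Pola2* (0.0781) and *Cdc45* (0.0737), and in KO livers for *Mcm10* (0.0542) and *Pola2* (0.0270). *Rrm2* in KO livers ran from -0.13 to 0.28 with 1 liver left out. Library sizes alone moved the median of all genes by 0.42 and 0.25 between diets and by -0.19 in KO against WT on CDA-HFD. The cause of the other changes was not tested. The log2 fold changes of the 21 members looked at were followed under all alternatives, in the interaction only those of *Pole*, *Mcm5*, *Pole2* and *Rrm2*. Of these values, 1275 kept their direction and side of the threshold, 106 lost a call, 68 gained one and 20 turned. The 1275 include values that passed in neither fit.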
